A study of Homo sapiens with 6 samples.

Results

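The genes described here are 35 transcripts of lipid synthesis, measured in the prostate cancer line PC-3. They comprise 19 genes of cholesterol synthesis and sterol transfer (the sterol arm), 11 genes of fatty acid synthesis, elongation, desaturation and activation (the fatty acid arm) and 5 genes of the SREBP control system. They were chosen by gene symbol from knowledge of the pathways, with earlier results of these data already known. All 35 were found among the 18780 genes of the deposited table, SC5D under its older symbol SC5DL. One group of libraries is from cells treated for 24 h with 2.5 µM trans-Gnetin H (TGH), a plant compound made of resveratrol units (n = 3). The other is from cells that received solvent, dimethyl sulfoxide (DMSO), over the same period (n = 3). All cells were grown in DMEM/F12 with 10% FBS. By its title the study addresses a drug-induced lack of glucose in advanced prostate cancer. It used 1 cell line, and nothing in the labels says whether the 3 libraries of a group came from separate cultures, so the p-values below measure only the spread between these libraries.

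Cholesterol is built from acetyl-CoA through mevalonate, farnesyl diphosphate, squalene and lanosterol. Fatty acids are built from the same acetyl-CoA, supplied from citrate or acetate. Both routes are transcribed under the SREBP transcription factors, which are made as membrane proteins of the endoplasmic reticulum. The escort protein SCAP carries them to the Golgi for cleavage when membrane cholesterol is low, and INSIG proteins hold SCAP back when sterols are plentiful. SREBP2, the product of SREBF2, is known mainly for sterol genes, and SREBP1, the product of SREBF1, mainly for fatty acid genes. SREBP proteins bind the sterol regulatory element, commonly next to a CCAAT box bound by the factor NF-Y. Prostate cancer cells are known for active lipid synthesis.

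Promoter windows of 6 members are printed as examples from both directions: STARD4, MVD and MSMO1 from the higher sterol genes, EBP as the lower one, and SREBF2 and SREBF1 as the SREBP genes themselves. They were picked after their values were seen and are not the 6 largest differences. Each runs from 250 bases before the annotated start of transcription to 50 bases after it, on the gene's own strand, and was taken from RefSeq on GRCh38.p14, not from the libraries. Capitals mark CCAAT on either strand (ATTGG where it lies on the other strand) and, in SREBF2 alone, the letters TCACCCCAC, which match the sterol regulatory element pattern TCACNCCAC.
STARD4, chr5:111512486-111512785, minus strand: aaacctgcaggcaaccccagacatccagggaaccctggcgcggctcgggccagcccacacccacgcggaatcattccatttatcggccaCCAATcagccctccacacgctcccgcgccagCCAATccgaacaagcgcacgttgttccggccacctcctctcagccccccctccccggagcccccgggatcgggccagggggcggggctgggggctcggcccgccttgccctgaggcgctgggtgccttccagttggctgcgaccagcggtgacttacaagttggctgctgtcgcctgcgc
MVD, chr16:88663042-88663341, minus strand: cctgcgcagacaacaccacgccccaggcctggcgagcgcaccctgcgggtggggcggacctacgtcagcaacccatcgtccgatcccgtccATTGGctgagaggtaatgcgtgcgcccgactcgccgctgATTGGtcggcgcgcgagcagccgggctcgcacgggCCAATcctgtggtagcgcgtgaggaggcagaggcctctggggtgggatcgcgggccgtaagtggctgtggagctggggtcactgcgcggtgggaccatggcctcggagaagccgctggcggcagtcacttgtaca
MSMO1, chr4:165327419-165327718, plus strand: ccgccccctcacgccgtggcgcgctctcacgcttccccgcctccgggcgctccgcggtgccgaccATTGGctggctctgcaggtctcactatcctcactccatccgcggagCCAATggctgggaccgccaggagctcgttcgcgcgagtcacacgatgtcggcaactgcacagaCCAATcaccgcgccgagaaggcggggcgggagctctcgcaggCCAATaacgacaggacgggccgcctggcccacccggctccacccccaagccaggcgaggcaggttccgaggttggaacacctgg
SREBF2, chr22:41832855-41833154, plus strand: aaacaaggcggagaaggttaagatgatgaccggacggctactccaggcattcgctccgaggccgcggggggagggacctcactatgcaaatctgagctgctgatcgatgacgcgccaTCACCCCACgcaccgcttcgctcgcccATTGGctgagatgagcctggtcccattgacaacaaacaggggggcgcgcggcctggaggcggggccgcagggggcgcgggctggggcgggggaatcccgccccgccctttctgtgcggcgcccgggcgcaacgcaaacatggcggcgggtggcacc
SREBF1, chr17:17836937-17837236, minus strand: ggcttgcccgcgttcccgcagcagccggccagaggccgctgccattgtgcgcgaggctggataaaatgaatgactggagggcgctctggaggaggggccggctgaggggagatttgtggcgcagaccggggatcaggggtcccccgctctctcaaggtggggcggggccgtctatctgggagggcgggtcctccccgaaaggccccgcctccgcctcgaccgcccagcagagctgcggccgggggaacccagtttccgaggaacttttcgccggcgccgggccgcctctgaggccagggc
EBP, chrX:48521558-48521857, plus strand: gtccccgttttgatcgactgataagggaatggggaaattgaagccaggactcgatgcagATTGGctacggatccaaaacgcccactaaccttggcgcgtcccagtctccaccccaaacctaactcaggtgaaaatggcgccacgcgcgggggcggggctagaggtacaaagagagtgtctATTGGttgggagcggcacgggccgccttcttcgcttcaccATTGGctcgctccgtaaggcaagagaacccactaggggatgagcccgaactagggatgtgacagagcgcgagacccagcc

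The CCAAT box was found 2 times in the STARD4 window, 3 times in MVD, 4 times in MSMO1, 1 time in SREBF2 and 3 times in EBP. It was not found in the SREBF1 window, the only 1 given for that gene, so any other start site of SREBF1 was not searched. Over all members, 31 had at least 1 window in the table, 42 windows in all, and 23 of the 31 genes (74.2%) had a CCAAT box in at least 1 of them. The same held for 43.4% of 8795 tested genes that had a window, and for 34.6% of all 35116 windows taken one by one. By arm, a CCAAT box was present in 14 of 16 sterol genes, 2 of 5 SREBP regulators and 7 of 10 fatty acid genes. By result, it was present in 12 of 16 higher, 5 of 6 lower and 6 of 9 uncalled members. The pattern TCACNCCAC matched in 1 of 31 members (3.23%), SREBF2, and in 1.48% of the tested genes with a window. The E-box CACGTG matched in 5 of 31 members (16.1%), LSS, SC5D, SCAP, INSIG1 and ELOVL5, and in 12.8% of those genes, which is close to the share of members. The ER stress element matched in 0 members and 0.171% of those genes, and the ATF4 element TGATGNAA in 0 members and 2.58%. Over all windows taken one by one the shares were 1.13% for TCACNCCAC, 7.26% for CACGTG, 0.0769% for the ER stress element and 3.62% for TGATGNAA. Both strands were searched, and a CCAAT box can be part of an ER stress element. A match is a string of letters in the reference and was not tested as a binding site. Only a single spelling of the sterol regulatory element was searched, so a window without it may still hold an SREBP site.

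**Figure D1:**
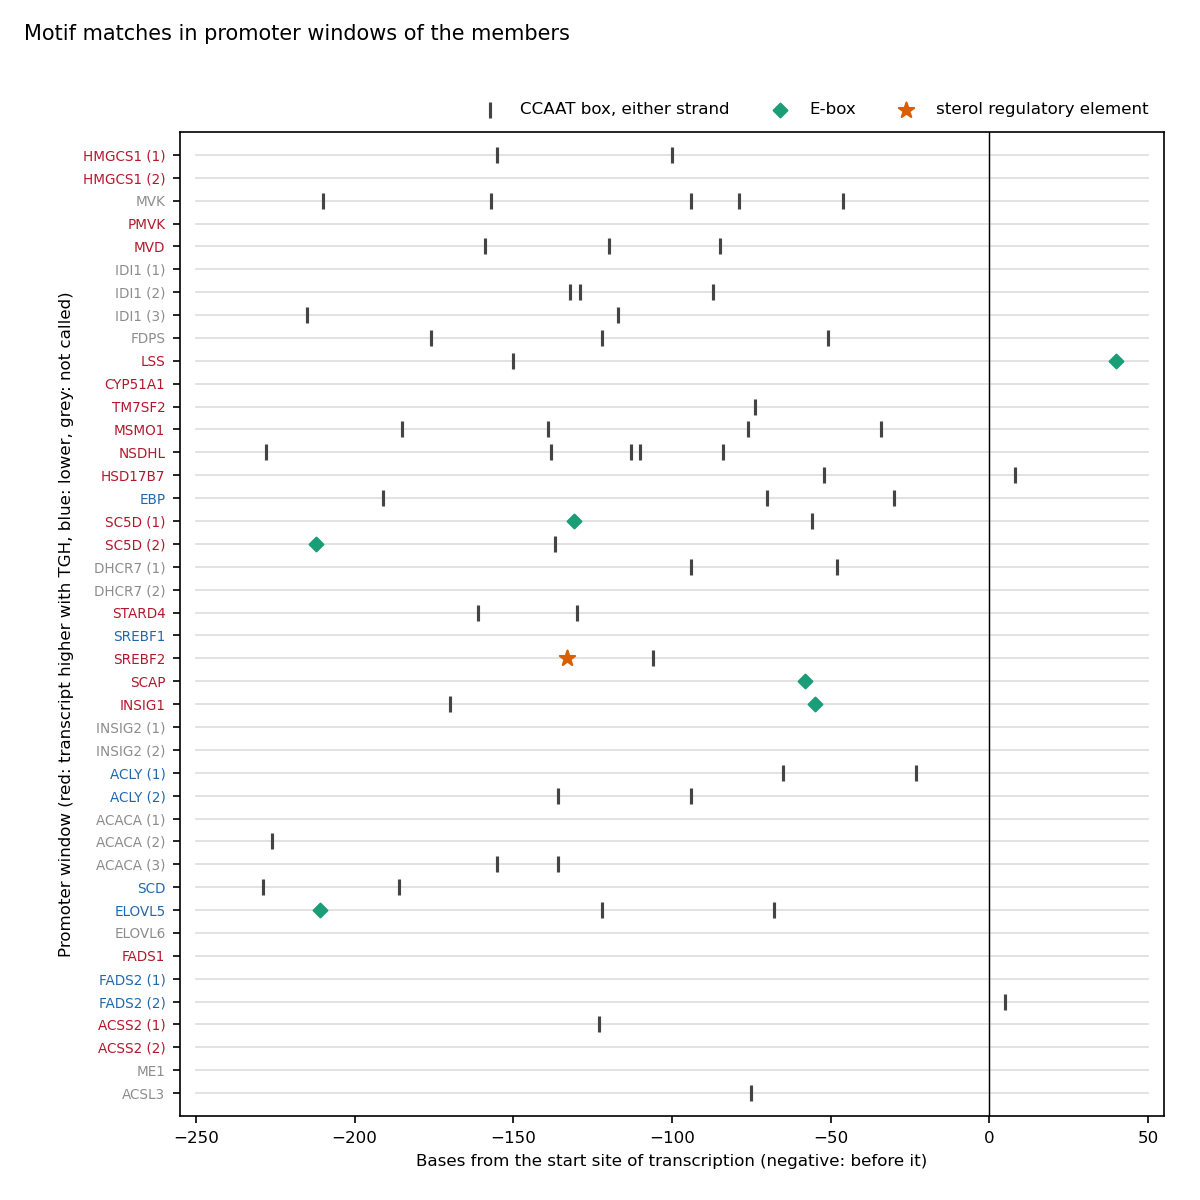
Motif matches in the promoter windows of 31 members. Each grey line is 1 window, the x axis is the distance in bases from the start of transcription, and gene names are red where the transcript was higher with TGH, blue where lower and grey where not called. CCAAT boxes lie in windows of all 3 colours, and the single match to the sterol regulatory element pattern TCACNCCAC is in SREBF2.

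Values are in TPM, which scales reads by transcript length and library total, so levels can be set side by side between genes. They were deposited as log2(TPM + 1). Differences below are TGH minus DMSO on that log2 scale, from limma with Benjamini-Hochberg adjustment over the 12018 genes whose mean reached 1 TPM. A gene was called at an adjusted p under 0.05. Of all genes tested, 28.9% were called higher and 26.3% lower, so a call by itself is common in this comparison. TPM carries no read total, so depth is unknown. DMSO replicates 1 and 2 listed 3074 and 3185 genes at exactly 0, against 1342 to 1530 in the other 4 libraries, and the fit was repeated with DMSO replicate 3 as the only control. There, only the TGH libraries give the spread, and the lone DMSO library is assumed to vary like them. No member was listed at 0 in any library, and all 35 passed the filter. TPM is a share of the RNA in a library, so fewer cells and less RNA per cell cannot be told apart. The epithelial markers KRT8, KRT18, EPCAM and CDH1 summed to 1060 to 1070 TPM in TGH libraries and 1400 to 1420 TPM in DMSO libraries. KRT8 (423 to 426 TPM with TGH, 594 to 620 TPM with DMSO) and KRT18 (418 to 424 TPM with TGH, 549 to 593 TPM with DMSO) made up most of that gap. CDH1 lay the other way, at 51.3 to 52.9 TPM with TGH and 48.4 to 50.3 TPM with DMSO, as did the luminal prostate gene TMPRSS2, at 5.08 to 5.5 TPM with TGH and 4.06 to 4.8 TPM with DMSO. The other luminal genes planned as checks, KLK3 and KLK2, were not found by symbol among the deposited genes. The immune, endothelial and fibroblast markers PTPRC, CD14, PECAM1, VWF, COL1A2 and LUM summed to 1.06 to 1.43 TPM in TGH libraries and 0.748 to 1.65 TPM in DMSO libraries. The part of the zeros in the results below was not tested beyond the fit with DMSO replicate 3 as the only control. The part of the epithelial marker difference was not tested.

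With TGH, most members of the sterol arm were higher, and the SREBP genes SREBF2 and SREBF1 moved in opposite directions. Of 5 tested sterol synthesis genes outside the members, 2 were higher and 2 lower. The fatty acid genes were mixed, with about as large a share called as among all genes. In the sterol arm 13 of 19 members were called higher and 1 lower, beside 28.9% higher, 26.3% lower and 55.2% in either direction among all genes tested. In the fatty acid arm 2 of 11 were higher, 4 were lower and 5 were not called. Of the 5 SREBP regulators, 4 were called, 3 higher and 1 lower. The median difference was 0.27 in the sterol arm, 0.13 among the regulators and -0.06 in the fatty acid arm, beside 0.02 over all genes tested. The differences were mostly small: 5 members, all in the sterol arm, were called with a difference of at least 0.5, beside 10.6% of all genes tested. With DMSO replicate 3 as the only control, 12 sterol members were higher and 1 lower, 1 regulator was higher and 1 lower, and 2 fatty acid members were higher and 5 lower, beside 25.6% higher, 22.9% lower and 48.5% in either direction among all genes.

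TGH and DMSO libraries did not overlap in 16 of 19 sterol members, with TGH above DMSO in 14 and below it in 2. They did not overlap in 7 of 11 fatty acid members, with TGH above in 2 and below in 5, and in all 5 regulators, with TGH above in 3 and below in 2. Among all genes tested TGH lay wholly above DMSO in 33.6% and wholly below in 30.8%. Summed over the sterol arm, the members reached 692, 698 and 703 TPM in TGH libraries, against 626, 643 and 639 TPM in DMSO libraries. FDPS alone held more of this sum than any other member, and without it the sums were 540 to 549 TPM with TGH and 471 to 487 TPM with DMSO. The fatty acid arm summed to 337, 341 and 340 TPM in TGH libraries, against 372, 364 and 366 TPM in DMSO libraries. These sums are descriptions and were given no test.

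**Figure D2:**
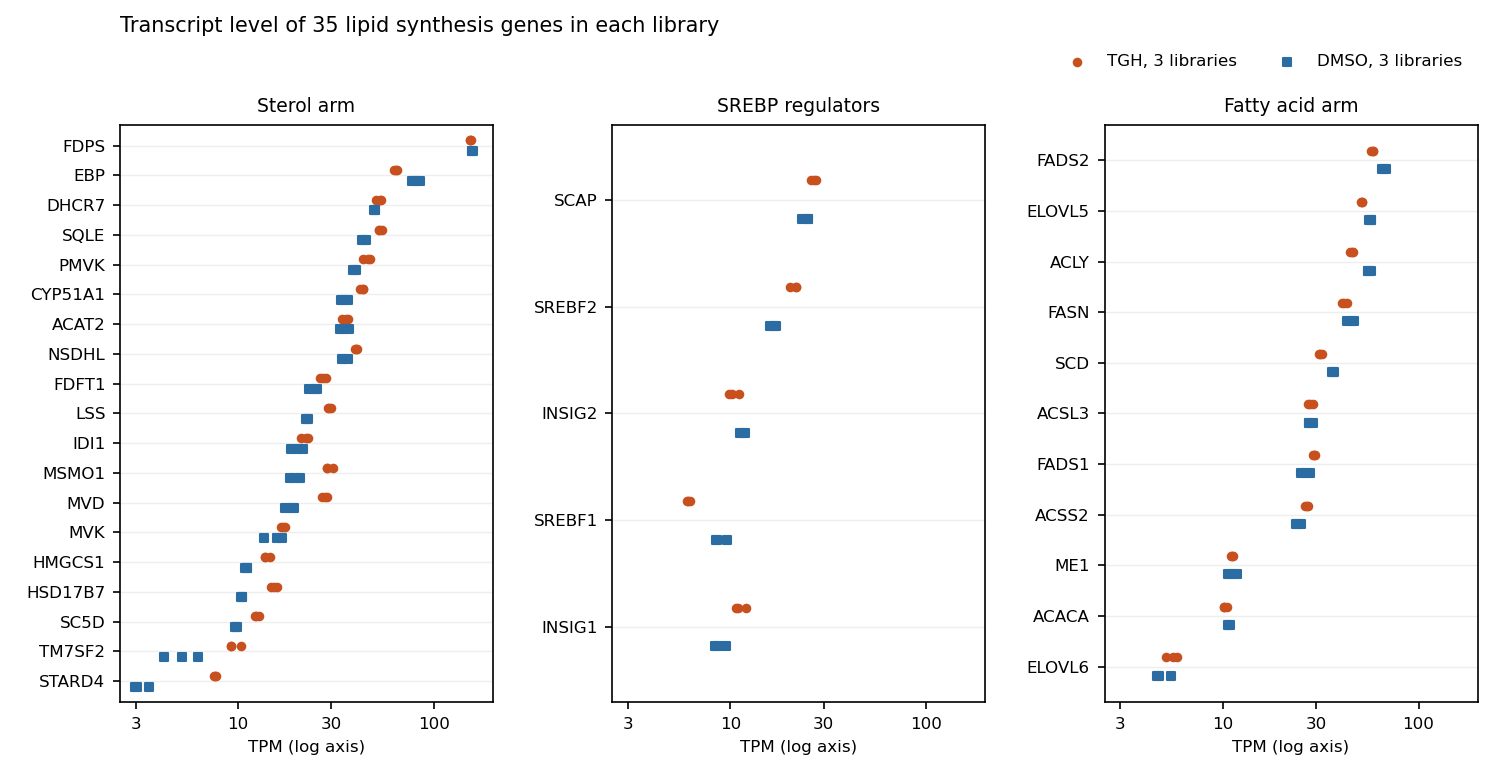
Level of each member in each library, in TPM on a log axis, with genes ordered by their DMSO mean within each panel. Circles are TGH libraries and squares are DMSO libraries, 3 each. STARD4 lies at 7.55 to 7.74 TPM with TGH and 2.99 to 3.5 TPM with DMSO, while FDPS, the most abundant member, lies above 150 TPM in all 6 libraries.

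**Figure D3:**
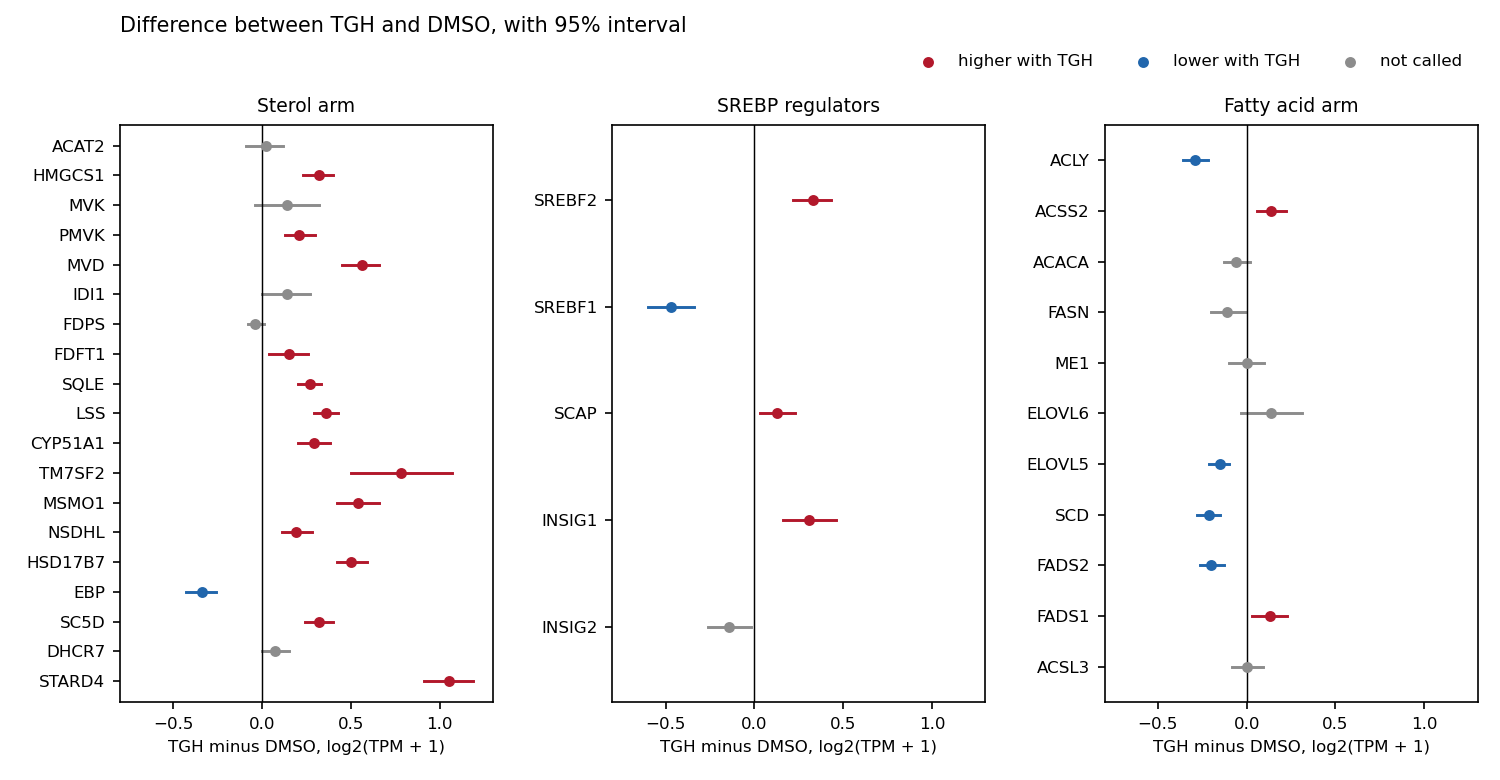
Difference of each member between TGH and DMSO on the log2(TPM + 1) scale, with its 95% interval from limma, ordered along the pathway. Red and blue mark members called higher and lower, and grey marks those not called. In the sterol panel EBP is the member below 0 that was called, and STARD4, at 1.05, has the largest difference of the 35.

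The first steps of the route, up to farnesyl diphosphate, had 3 called members of 7, all higher, with a median of 0.14. Of all genes tested, 28.9% were called higher and 55.2% in either direction. The count of 3 is therefore not read as a result about this stretch. HMGCS1, which joins acetyl-CoA to acetoacetyl-CoA, had 14.6, 13.8 and 13.7 TPM in TGH libraries, against 10.9, 11.1 and 11.1 TPM in DMSO libraries. It rose by 0.32 (SE 0.036, adjusted p = 0.00047, limma), and the groups were well apart. MVD, which decarboxylates the phosphorylated mevalonate to isopentenyl diphosphate, had 26.8, 27.8 and 28.4 TPM in TGH libraries, against 17.4, 18.8 and 19.2 TPM in DMSO libraries. Its rise of 0.56 (SE 0.044, adjusted p = 9.3e-05) was the largest in this stretch. PMVK, the kinase just before it, had 43.5 to 47.2 TPM with TGH and 38.5 to 39.9 TPM with DMSO, a rise of 0.21 (adjusted p = 0.0026). The remaining 4 were not called. MVK, the kinase that first phosphorylates mevalonate, had 17.0, 17.4 and 16.6 TPM with TGH, against 13.6, 16.8 and 15.8 TPM with DMSO. The groups overlapped through DMSO replicate 2, and the difference was 0.14 (95% interval -0.04 to 0.32, adjusted p = 0.16). Single DMSO libraries moved MVK both ways: it was called without DMSO replicate 2, at 0.20 (adjusted p = 0.0462), and was 0.06 without DMSO replicate 1 (adjusted p = 0.299). IDI1, the isomerase of isopentenyl diphosphate, had 21.0 to 22.9 TPM with TGH and 18.6 to 21.4 TPM with DMSO, a difference of 0.14 (adjusted p = 0.082), which was 0.18 and called without DMSO replicate 2 (adjusted p = 0.0301) and 0.09 without DMSO replicate 1 (adjusted p = 0.178).

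FDPS, which makes farnesyl diphosphate and is the most abundant member, had 153, 154 and 153 TPM with TGH, against 156, 157 and 159 TPM with DMSO. TGH libraries were lower without overlap, but by only -0.04 (95% interval -0.08 to 0.01, adjusted p = 0.13). The call and the direction of FDPS depended on scaling: it was -0.07 and called after median scaling (adjusted p = 0.0161), and 0.0154 after quantile normalization. ACAT2, the thiolase that makes acetoacetyl-CoA, had 34.0 to 36.3 TPM with TGH and 33.3 to 36.7 TPM with DMSO. The groups overlapped fully, with a difference of 0.02 (95% interval -0.09 to 0.12, adjusted p = 0.77). In GENCODE 29 on GRCh38 the exons of ACAT2 overlap those of TCP1 and SOD2 on the opposite strand. TCP1 had a mean of 144 TPM and SOD2 of 40.2 TPM, and both were called lower. Exons of MVK overlap those of MMAB on the opposite strand, which had a mean of 11.0 TPM and was called higher. The part of these overlaps in the ACAT2 and MVK values was not tested. Whether reads were counted by strand is not given in the sources used here.

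From squalene to cholesterol, 9 of 11 members were higher and 1 lower, with a median of 0.29. Among all genes tested the shares were 28.9% higher and 26.3% lower. SQLE, the epoxidase that commits squalene to sterols, had 52.7, 54.2 and 52.7 TPM in TGH libraries, against 45.0, 43.1 and 44.0 TPM in DMSO libraries. LSS, which closes the rings to give lanosterol, had 28.7 to 29.9 TPM with TGH and 22.2 to 22.9 TPM with DMSO. SQLE rose by 0.27 (SE 0.027, adjusted p = 0.00028) and LSS by 0.36 (SE 0.030, adjusted p = 0.00011), and in both the groups were far apart for their spread. FDFT1, the synthase that makes squalene, had 26.1 to 28.2 TPM with TGH and 23.1 to 25.2 TPM with DMSO. Its rise of 0.15 (adjusted p = 0.026) was the smallest called in the sterol arm, and 4 alternatives ended the call. These were median scaling (adjusted p = 0.0574), leaving out TGH replicate 1 (0.0753) or TGH replicate 3 (0.0929), and DMSO replicate 3 as the only control (0.155).

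The enzymes that trim lanosterol followed. CYP51A1, the lanosterol demethylase, had 41.7 to 43.7 TPM with TGH and 33.5 to 36.3 TPM with DMSO, a rise of 0.29 (adjusted p = 0.00079). MSMO1, the oxidase that begins the removal of the paired methyl groups of the first ring, had 28.3, 30.5 and 28.6 TPM in TGH libraries, against 20.8, 18.5 and 19.6 TPM in DMSO libraries. It rose by 0.54 (SE 0.050, adjusted p = 0.00019). NSDHL, the dehydrogenase that acts after MSMO1, rose by only 0.19 (adjusted p = 0.0040), with 39.4 to 40.7 TPM with TGH and 34.0 to 36.5 TPM with DMSO. HSD17B7, the reductase that completes the same removal, had 14.8, 15.2 and 15.8 TPM in TGH libraries, against 10.4, 10.5 and 10.5 TPM in DMSO libraries. The rise of HSD17B7 was 0.50 (SE 0.035, adjusted p = 5.9e-05). Its pseudogene HSD17B7P2 had a mean of 2.28 TPM with TGH and 0.842 TPM with DMSO, and reads may be split between them, so the value is uncertain.

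TM7SF2, a sterol reductase, had 9.24, 9.17 and 10.4 TPM in TGH libraries, against 4.18, 5.21 and 6.23 TPM in DMSO libraries. DMSO libraries scattered more than TGH libraries, and the groups did not overlap. TM7SF2 rose by 0.78 (SE 0.12, adjusted p = 0.0017), a value that was 0.52 with a pseudocount of 5 in place of 1. The annotation places exons of VPS51 over those of TM7SF2 on the same strand, so some reads could belong to either. VPS51 had a mean of 37.0 TPM, well above TM7SF2, and was not called. Its part in the TM7SF2 values was not tested. SC5D, the desaturase of the sterol ring, had 12.2 to 12.8 TPM with TGH and 9.7 to 9.86 TPM with DMSO, a rise of 0.32 (adjusted p = 0.00035). DHCR7, which reduces the last precursor to cholesterol, had 50.6 to 53.9 TPM with TGH and 49.4 to 50.2 TPM with DMSO. It was not called, at 0.07 (adjusted p = 0.079), and the value depended on scaling. DHCR7 was called without TGH replicate 1 (0.10, adjusted p = 0.029) and after quantile normalization (0.115, adjusted p = 0.0178), and was 0.04 after median scaling (adjusted p = 0.357).

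EBP, the isomerase that shifts the double bond of the sterol ring, was the single sterol member called lower. It had 62.6, 64.4 and 64.5 TPM in TGH libraries, against 77.7, 85.3 and 81.0 TPM in DMSO libraries. EBP fell by 0.34 (SE 0.037, adjusted p = 0.00037), and its call and direction held under all 16 alternatives run. STARD4, which carries cholesterol between membranes, had 7.74, 7.67 and 7.55 TPM in TGH libraries, against 3.5, 3.07 and 2.99 TPM in DMSO libraries. The TGH mean was 2.40 times the DMSO mean, the largest ratio among the members. On the log2 scale STARD4 rose by 1.05 (SE 0.057, adjusted p = 2.1e-05), or by 0.63 with a pseudocount of 5. It was the least abundant of the 35 in DMSO and ranked 33rd with TGH.

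Among the regulators, the SREBP genes moved in opposite directions. SREBF2 had 20.1, 21.6 and 21.6 TPM in TGH libraries, against 16.0, 17.1 and 16.7 TPM in DMSO libraries. SREBF1 had 6.25, 6.08 and 6.01 TPM in TGH libraries, against 8.41, 8.57 and 9.61 TPM in DMSO libraries. Neither pair of groups overlapped. SREBF2 rose by 0.33 (SE 0.042, adjusted p = 0.00083) and SREBF1 fell by 0.47 (SE 0.055, adjusted p = 0.00054). Both calls held under all 16 alternatives. The table has 1 row per gene, so isoforms of SREBF1 are not separated. The annotated exons of SREBF1 also overlap RAI1 on the opposite strand.

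INSIG1, which holds SCAP in the endoplasmic reticulum and is itself a known SREBP target, had 12, 10.9 and 10.7 TPM in TGH libraries, against 8.65, 8.39 and 9.49 TPM in DMSO libraries. It rose by 0.31 (SE 0.061, adjusted p = 0.0052), a call that was lost with DMSO replicate 3 as the only control (0.22, adjusted p = 0.064). INSIG2, which does the same task, had 11.1, 10.2 and 9.91 TPM in TGH libraries, against 11.9, 11.6 and 11.2 TPM in DMSO libraries. Its TGH libraries were lower without overlap, at -0.14 (95% interval -0.26 to -0.02), and the adjusted p of 0.051 just missed the threshold. INSIG2 was called lower under 6 of 16 alternatives, among them without TGH replicate 1 (-0.19, adjusted p = 0.0239), and its adjusted p ran from 0.0221 to 0.314. SCAP had 25.7 to 27.4 TPM with TGH and 23.1 to 24.9 TPM with DMSO, a rise of 0.13 (adjusted p = 0.034). The SCAP call was lost under 5 alternatives. These were median scaling (adjusted p = 0.0923), leaving out TGH replicate 2 (0.112), TGH replicate 3 (0.095) or DMSO replicate 1 (0.0628), and DMSO replicate 3 as the only control (0.138).

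In the fatty acid arm the enzyme that makes cytosolic acetyl-CoA from citrate was lower and the one that makes it from acetate was slightly higher. ACLY, the citrate lyase, had 44.7, 46.3 and 45.6 TPM in TGH libraries, against 57.2, 55.4 and 55.1 TPM in DMSO libraries. It fell by 0.29 (SE 0.027, adjusted p = 0.00020), the largest change in this arm. ACSS2, the acetate-activating synthetase, had 26.2 to 27.2 TPM with TGH and 23.7 to 25.1 TPM with DMSO, a rise of 0.14 (SE 0.033, adjusted p = 0.011). Both calls held under all alternatives run.

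The chain-building enzymes were not called. ACACA, the carboxylase that makes malonyl-CoA, had 10.2, 10.2 and 10.5 TPM with TGH, against 10.6, 10.9 and 10.8 TPM with DMSO, a difference of -0.06 (95% interval -0.13 to 0.02, adjusted p = 0.19). FASN, the fatty acid synthase, had 40.5, 43.4 and 41.5 TPM with TGH, against 43.3, 45.7 and 46.6 TPM with DMSO. TGH replicate 2 and DMSO replicate 1 met in the middle, and the difference was -0.11 (95% interval -0.20 to -0.01, adjusted p = 0.053). FASN was called lower without TGH replicate 2 (-0.14, adjusted p = 0.0438), without DMSO replicate 1 (-0.14, adjusted p = 0.0204) and under 4 other alternatives. ME1, the malic enzyme that supplies NADPH, had 11.1 to 11.3 TPM with TGH and 10.7 to 11.8 TPM with DMSO, so the groups overlapped (95% interval of the difference -0.10 to 0.10, adjusted p = 0.97).

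Among elongases and desaturases 3 were lower and 1 was higher, beside 26.3% lower and 28.9% higher among all genes tested. SCD, which puts the first double bond into saturated chains, had 32.2, 30.9 and 31.4 TPM in TGH libraries, against 36.6, 37.2 and 36.4 TPM in DMSO libraries. It fell by 0.21 (SE 0.028, adjusted p = 0.00081). ELOVL5, an elongase of polyunsaturated chains, fell by 0.15 (SE 0.023, adjusted p = 0.0016), with 50.9 to 51.3 TPM with TGH and 56.0 to 57.5 TPM with DMSO. ELOVL6, which lengthens palmitate, had 5.61, 5.17 and 5.85 TPM with TGH, against 5.47, 4.72 and 4.61 TPM with DMSO. The groups of ELOVL6 overlapped, at 0.14 (95% interval -0.03 to 0.31, adjusted p = 0.13), and without DMSO replicate 1 it was called higher (0.21, adjusted p = 0.0285). ELOVL6 was 0.06 after quantile normalization (adjusted p = 0.537), 0.09 with a pseudocount of 5 (adjusted p = 0.132) and 0.22 with DMSO replicate 3 as the only control (adjusted p = 0.0673).

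FADS2 and FADS1 are neighbouring desaturase genes that act in turn on polyunsaturated fatty acids. FADS2 had 57.3, 58.4 and 58.7 TPM in TGH libraries, against 68.5, 65.1 and 66.7 TPM in DMSO libraries, and fell by 0.20 (SE 0.027, adjusted p = 0.0011). FADS1 had 28.8, 29.2 and 29.5 TPM with TGH, against 28.0, 25 and 26.8 TPM with DMSO. Its rise of 0.13 (SE 0.044, adjusted p = 0.041) was lost under 9 of 16 alternatives, with 5 of the 6 single libraries left out among them (adjusted p from 0.0692 without DMSO replicate 2 to 0.117 without TGH replicate 3). The exception was DMSO replicate 1. Annotated exons of FADS1 and FADS2 overlap on opposite strands, so their reads can be told apart only if strand was used. Exons of FADS2 also overlap those of FEN1 on the same strand, where strand cannot separate reads. FEN1 had a mean of 68.6 TPM and was itself called lower, so some FADS2 reads could belong to FEN1, which was not tested. ACSL3, which activates long-chain fatty acids, had 27.2 to 29.1 TPM with TGH and 27.5 to 28.9 TPM with DMSO, and the groups overlapped (95% interval of the difference -0.08 to 0.09, adjusted p = 0.94).

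Related genes that do similar or successive tasks were also set against each other within each library. The 5 pairs were chosen after their values were seen, so the ratios are a description with no test. SREBF2 transcripts numbered 3.22, 3.55 and 3.60 for each SREBF1 transcript in TGH libraries, against 1.91, 2 and 1.74 in DMSO libraries. The INSIG1 to INSIG2 ratio was 1.08, 1.07 and 1.08 with TGH, against 0.725, 0.725 and 0.849 with DMSO, so INSIG1 was the more abundant of them in TGH libraries and the less abundant in DMSO libraries. TM7SF2 and LBR both encode enzymes that reduce the same sterol double bond, and LBR is also a protein of the nuclear envelope. Their ratio was 0.606, 0.580 and 0.671 with TGH, against 0.192, 0.225 and 0.292 with DMSO. The exon overlap of TM7SF2 with VPS51 limits this ratio. The ratio of DGAT1 to DGAT2, which both make triglyceride, was 4.36 to 4.55 with TGH and 1.72 to 2.24 with DMSO. The ratio of FADS1 to FADS2 was 0.5 to 0.503 with TGH and 0.384 to 0.409 with DMSO. The exon overlaps of FADS2 with FADS1 and FEN1 limit this ratio as well. In each of the 5 the first gene was higher with TGH and the second lower, each without overlap. The direction of the ratios and the gap between groups therefore followed from the choice of pairs.

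**Figure D4:**
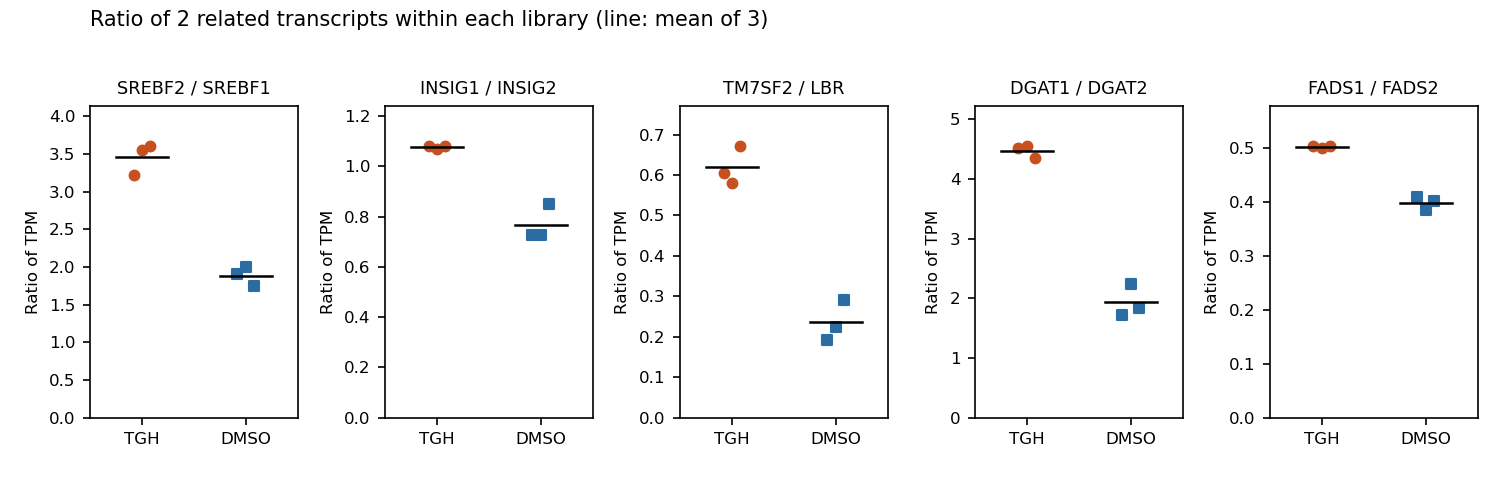
Ratio of TPM between related transcripts in each library, with TGH on the left and DMSO on the right of each panel. Points are libraries, 3 per group, lines are means, and each y axis starts at 0. For SREBF2 over SREBF1 the ratio is 3.22 to 3.60 with TGH and 1.74 to 2 with DMSO. In all 5 panels the gene on top was higher in TGH libraries and the other lower, each without overlap, so the choice of pairs set the direction. INSIG2 was not called, and the calls of INSIG1 and FADS1 did not hold under all alternatives.

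Other genes of these pathways were counted from 6 further lists. Of 5 tested genes in the remainder of sterol synthesis, 2 were higher and 2 lower, with a median of -0.03. LBR had 15.2, 15.8 and 15.5 TPM in TGH libraries, against 21.8, 23.2 and 21.3 TPM in DMSO libraries, and fell by 0.48 (SE 0.039, adjusted p = 0.00011). C14orf1, a scaffold for sterol enzymes, rose by 0.21 (adjusted p = 0.039), but 8 of 16 alternatives ended that call. With DMSO replicate 3 as the only control C14orf1 had 0.11 (adjusted p = 0.113), and without DMSO replicate 2 it had 0.13 and kept the call (adjusted p = 0.0331). Leaving out TGH replicate 1, 2 or 3 gave adjusted p of 0.073, 0.118 and 0.094.

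Among genes that use mevalonate products for other ends, 3 of 11 were higher and 4 lower, with a median of -0.09. NUS1, a subunit of the enzyme that starts dolichol synthesis, rose by 0.26 (adjusted p = 0.00078). PDSS1, which builds the tail of coenzyme Q, fell by 0.41 (adjusted p = 0.00019), or by 0.27 with a pseudocount of 5. ICMT and RCE1, which finish prenylated proteins, fell by 0.31 (adjusted p = 6.2e-05) and 0.32 (adjusted p = 0.0011). In the list of SREBP processing and turnover genes 1 of 11 was higher, 3 were lower and 7 were not called, with a median of 0.02. ERLIN2, part of a protein complex of the endoplasmic reticulum membrane, rose by 0.33 (adjusted p = 0.0010). MBTPS1, the first protease that cleaves SREBP, was not called (0.02, adjusted p = 0.54), and MBTPS2, the second, fell by 0.16 (adjusted p = 0.025). The MBTPS2 call was lost with DMSO replicate 3 as the only control (adjusted p = 0.103) and without TGH replicate 2 (0.0826) or TGH replicate 3 (0.0831). RNF145, a ubiquitin ligase of sterol control, fell by 0.17 (adjusted p = 0.021), a call lost without TGH replicate 2 (0.0674), TGH replicate 3 (0.0729), DMSO replicate 1 (0.0501) or DMSO replicate 3 (0.0638). MBTPS1 lies outside the naming rule and was added after its value was seen.

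For sterol uptake, transport, storage and efflux, 12 of 17 listed genes passed the filter, and 5 were higher and 4 lower, with a median of 0.11. NPC2, which binds cholesterol inside lysosomes, had 139, 142 and 139 TPM in TGH libraries, against 98.8, 101 and 97.1 TPM in DMSO libraries, a rise of 0.50 (SE 0.023, adjusted p = 1.3e-05). NPC1, its partner in the lysosomal membrane, rose by 0.44 (adjusted p = 0.00013), and LIPA, the acid lipase that frees cholesterol from its esters, by 0.35 (adjusted p = 0.00079). SCARB1, a lipoprotein receptor, fell by 0.21 (adjusted p = 0.0010), and TMEM97, a sterol-responsive membrane protein, by 0.33 (adjusted p = 0.0087). Both were named after their values were seen. The efflux transporters ABCA1 and ABCG1, also named afterwards, are targets of the oxysterol receptors. They stayed under 1 TPM in every library and were not tested.

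In the remainder of fatty acid synthesis 7 of 20 tested genes were higher and 5 lower, with a median of 0.03. FADS3, a neighbour and relative of FADS1 and FADS2, had 29.7, 29.2 and 28.9 TPM in TGH libraries, against 14.8, 16.7 and 17.6 TPM in DMSO libraries. It rose by 0.80 (SE 0.061, adjusted p = 8.4e-05), a larger difference than that of any member in the fatty acid arm. PTPLA, a dehydratase of fatty acid elongation, rose by 0.82 (SE 0.11, adjusted p = 0.00084), or by 0.52 with a pseudocount of 5, while PTPLAD1, its relative, fell by 0.30 (adjusted p = 0.00021). SLC25A1, the carrier that exports citrate from mitochondria to the step of ACLY, fell by 0.27 (adjusted p = 0.00033). In glycerolipid synthesis and storage 4 of 11 were higher and 3 lower, with a median of -0.05. LPIN2, a phosphatidate phosphatase, rose by 0.60 (SE 0.035, adjusted p = 2.8e-05). DGAT1 had 31.0, 32 and 32.6 TPM in TGH libraries, against 23.1, 24.5 and 23.3 TPM in DMSO libraries, and rose by 0.42 (adjusted p = 0.00014). DGAT2 had 6.86, 7.05 and 7.47 TPM in TGH libraries, against 13.4, 10.9 and 12.6 TPM in DMSO libraries, and fell by 0.71 (SE 0.074, adjusted p = 0.00032). PLIN2, which coats lipid droplets, fell by 0.23 (adjusted p = 0.0019). The called share of these 6 lists was read against 28.9% higher and 26.3% lower among all genes tested, and no list was tested as a set.

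**Figure D5:**
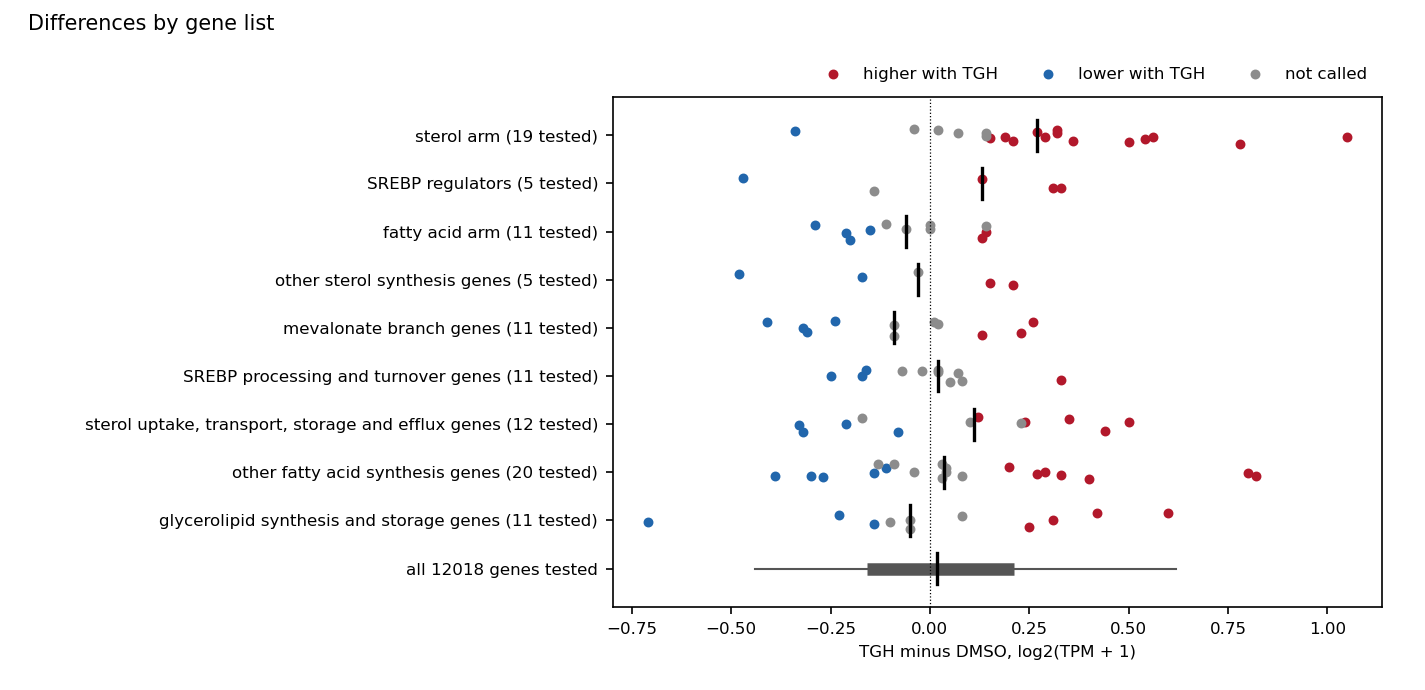
Difference between TGH and DMSO for each tested gene of the 3 groups of members and of the 6 further lists, on the log2(TPM + 1) scale. Red, blue and grey points are genes called higher, called lower and not called, black ticks are list medians, and the bottom bar gives all genes tested (thick, 25th to 75th percentile, -0.16 to 0.21; thin, 5th to 95th percentile, -0.44 to 0.62). The sterol arm has its median at 0.27, and each other list has its median between -0.09 and 0.13.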

How the data were processed

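RNA of PC-3 cells was depleted of ribosomal RNA and sequenced after a directional library kit, per the labels' protocols. The deposited values are log2(TPM + 1), with 1 row per gene symbol. The submitters' processing notes name hg19 as the genome, and the aligner, the quantifier and the gene annotation were not given there. Per library, the deposited TPM add up to 50.2% to 51.9% of the full TPM scale. TPM keeps no read depth, so no counting interval can be given.

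Genes whose mean reached 1 TPM entered a TGH against DMSO contrast in limma 3.58.1 under R 4.3.3 (moderated variances with a trend). The contrast was two-sided, with Benjamini-Hochberg adjustment and no covariate. The step was also run on simulated data with independent noise and few changed genes. Those data differ from the wide change seen here, so they do not show how reliable the calls are. An exact permutation test of 3 against 3 libraries cannot go below 0.1 and was not used. The members and lists were chosen with earlier results of these data known. All 35 members are named, and of each further list up to 4 called genes with the smallest p. The values of some genes under this rule are not reported here. Alternatives were other pseudocounts, filters, scalings and variances, exact zeros as missing, a replicate block, each library left out, and DMSO replicate 3 as the only control. Promoter windows came from RefSeq on GRCh38.p14 and overlapping exons from GENCODE 29 on GRCh38, which is not the build of the values, so they served for names, letters and neighbours only. Figures were drawn with matplotlib 3.10.9.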

Additional observations from a re-analysis of the deposited data

How the results depend on the processing

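Of 24 members called, 20 kept their call and direction under all 16 alternatives, and FDFT1, SCAP, INSIG1 and FADS1 lost the call under at least 1. The sterol arm had 12 to 15 higher members with a library left out, and 2 lower members after median scaling, where FDPS joined EBP. Among the regulators the number lower was 2 with a pseudocount of 0.1, a filter at 5 TPM, quantile normalization, median scaling or the replicate block, as INSIG2 passed the threshold, and it was 1 to 2 with a library left out. The number of regulators higher was 1 with DMSO replicate 3 as the only control. In the fatty acid arm the number higher was 1 with no filter, median scaling, variances without trend or the replicate block, as FADS1 dropped out, and 1 to 3 with a library left out. Uncalled members changed sign as follows. FDPS had 0.0154 after quantile normalization, and after median scaling ACAT2 had -0.0186 and ACSL3 had -0.0307. With a library left out ACAT2 ran between -0.0163 and 0.0529, ACSL3 between -0.0206 and 0.0268 and ME1 between -0.0336 and 0.0329. The cause was not tested.

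Over all genes, 3083 were higher and 3630 lower after median scaling, and 2964 and 3643 after quantile normalization, against 3479 and 3156 as deposited. Replicate numbers were not taken as pairs, since nothing in the labels says that they pair. Deviations of same-numbered TGH and DMSO libraries correlated at 0.00877, 0.0544 and 0.228, and the last was the highest of all combinations. TGH replicates 2 and 3 correlated best with the DMSO library of their own number, and TGH replicate 1 with DMSO replicate 2 (0.0956). With the replicate block 3273 genes were higher and 2958 lower, with 13 sterol members higher and 5 fatty acid members lower.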
